A study of Rattus norvegicus with 11 samples.

Results

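Toll-like receptors are the sensors by which phagocytes recognise microbial products and molecules released from damaged cells and blood. The set described here holds 10 genes of that pathway, chosen by symbol: the receptors Tlr1, Tlr2, Tlr3, Tlr4, Tlr7 and Tlr9, the co-receptors Cd14 and Ly96, the adaptor Myd88 and the inhibitor Irak3. They are 10 of the 30560 genes in the file, and all 10 were among the 15742 genes that passed the filter on low counts. Their RNA was measured in the striatum at day 3 in 11 adult male Sprague-Dawley rats, with 1 library per rat. Normal (n = 2) received neither injection nor aspiration. Common hemorrhage (IC, n = 3) was produced with 0.2 U of bacterial collagenase VII-S in 1.0 μL, injected into the right striatum, and severe hemorrhage (IS, n = 3) with 0.6 U in 3.0 μL. The aspirated group (IS-HA, n = 3) received the severe dose and had its hematoma drawn off through a catheter 6 h later. Collagenase opens vessels by digesting their basal lamina, so enzyme, needle track and blood act in the same tissue, and with no sham-injected group they cannot be told apart here.

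Each Toll-like receptor reads its own class of ligand. TLR2, paired with TLR1 or TLR6, binds lipoproteins at the cell surface, and TLR4 binds lipopolysaccharide there with the help of MD-2, the product of Ly96, after CD14 has handed the ligand over. TLR3, TLR7 and TLR9 sit in endosomes and read double-stranded RNA, single-stranded RNA and unmethylated CpG DNA. MyD88 is the adaptor of every receptor of the set except TLR3, which signals through TRIF, and IRAK-M, the product of Irak3, holds back signaling downstream of MyD88. In brain these receptors are best known from microglia, and heme and extracellular matrix fragments are among the endogenous molecules described as acting on TLR4 and TLR2 after hemorrhage.

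The promoters of 4 members are shown, chosen by the order of the rats in normalized counts, as described later. Tlr2, Myd88 and Irak3 were the members with every IS rat above every IC rat and above every IS-HA rat. Tlr9 had every IS rat below every IC rat. Some of these gaps were close to ties, as given there. Each run is the 250 bases before the gene's start in RefSeq (build GRCr8, 5′ to 3′ on the gene's strand), and capitals mark the bases that match any of the motifs named after the sequences. The table held promoters for 9 of the 10 members, the exception being Ly96.

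Tlr2: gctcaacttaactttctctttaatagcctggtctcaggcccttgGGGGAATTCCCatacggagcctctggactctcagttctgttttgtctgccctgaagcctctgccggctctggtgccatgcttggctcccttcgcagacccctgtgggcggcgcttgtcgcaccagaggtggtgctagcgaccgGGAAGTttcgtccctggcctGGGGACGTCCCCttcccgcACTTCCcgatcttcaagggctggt

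Myd88: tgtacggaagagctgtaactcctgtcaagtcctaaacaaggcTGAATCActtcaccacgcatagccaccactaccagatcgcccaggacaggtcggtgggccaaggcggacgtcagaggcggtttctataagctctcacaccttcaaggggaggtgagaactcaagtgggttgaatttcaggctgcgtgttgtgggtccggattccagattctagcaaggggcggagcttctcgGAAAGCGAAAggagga

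Irak3: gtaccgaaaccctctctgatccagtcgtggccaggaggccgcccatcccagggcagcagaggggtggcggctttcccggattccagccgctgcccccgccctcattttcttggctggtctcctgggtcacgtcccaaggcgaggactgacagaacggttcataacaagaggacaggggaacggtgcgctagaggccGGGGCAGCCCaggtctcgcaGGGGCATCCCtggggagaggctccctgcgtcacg

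Tlr9: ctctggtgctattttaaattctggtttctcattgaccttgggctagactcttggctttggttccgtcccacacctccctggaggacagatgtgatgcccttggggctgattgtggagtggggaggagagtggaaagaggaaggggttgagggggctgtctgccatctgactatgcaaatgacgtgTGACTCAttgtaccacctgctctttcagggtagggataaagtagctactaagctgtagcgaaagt

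The Tlr2 run lies at chr2:171504558-171504807 on the minus strand, that of Myd88 at chr8:127956231-127956480 (minus), that of Irak3 at chr7:57598632-57598881 (minus) and that of Tlr9 at chr8:115743157-115743406 (plus). Motifs were searched on both strands. An NF-kB-like motif, GGGNNNNNCC, was found in 3 of the 9 promoters, those of Tlr2, Tlr3 and Irak3, and in 42.3% of all 33469 promoters of the same length. In Tlr2 its matches overlap each other in 2 clusters, starting 206 and 43 bases before the start, and in Irak3 they start at 54 and 34 bases. An interferon-response-like motif, TTTCNNTTTC, was found only in Myd88, 16 bases before the start, and in 3.41% of all promoters. An AP-1-like motif, TGANTCA, was found in Tlr9 and Myd88, 65 and 208 bases before their starts, and in 6.34% of all promoters. The core GGAAGT, read by PU.1 and other ETS factors, was found in Tlr2 and Tlr4 and in 19.2% of all promoters. These are matches of letters and say nothing about binding.

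The counts assigned to genes summed to between 6701301 and 18817645 per library. IS-HA replicate 2 was the smallest library, and it also stood apart in its dependence on gene length: log2 CPM (counts scaled to a common library size) moved by -0.26 for each doubling of length, against 0.06 and 0.05 in the other IS-HA rats. The same slope was 0.15 and 0.26 in Normal, between -0.02 and 0.06 in IC and between -0.16 and -0.07 in IS. Ly96 and Cd14 are short genes, at 0.324 and 0.600 of the median length, and Tlr2 is the longest member at 2.11. Results that turn on IS-HA replicate 2 are therefore given with and without it. The microglia and macrophage list was detected with 12 of 12 genes and the striatal neuron list, which checks the labelled tissue, with 9 of 9.

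All 10 genes were higher in hemorrhage than in Normal striatum. In IC and in IS-HA all 10 were called higher, which here means an adjusted p under 0.05 and a log2 fold change of at least 1 by edgeR's quasi-likelihood test over all genes, and in IS 9 of 10 were called, the exception being Tlr9. Among all genes tested, 10.9% were called higher in IC, 18.8% in IS and 15.1% in IS-HA. The median log2 fold change of the 10 genes was 2.27 in IC, 2.63 in IS and 2.35 in IS-HA, beside 0.00, 0.02 and 0.06 over all genes. The 3 comparisons share the same 2 Normal rats, so they are not independent of each other.

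In the sentences that follow, levels are TPM (the deposited transcript abundance, corrected for gene length and scaled per library), with rats in the order of their labels: replicates 1 and 3 of Normal, 2, 3 and 4 of IC and of IS, and 1, 2 and 3 of IS-HA. Differences are log2 fold changes ± SE from the fit on counts. The p-values measure the spread between these rats.

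Cd14, which passes lipopolysaccharide and other ligands to TLR4 and TLR2, had the largest log2 fold changes of the set. Its TPM was 0.924 and 0.726 in Normal, and 29.6, 62.5 and 31.8 in IC. It was 91.6, 66.3 and 97.2 in IS and 46.1, 60.9 and 62.1 in IS-HA. Every hemorrhage rat lay far above both Normal rats, where Cd14 rested on 13 and 10 counts. The log2 fold change against Normal was 5.55 ± 0.46 in IC, 6.68 ± 0.48 in IS and 6.08 ± 0.47 in IS-HA (edgeR adjusted p = 0.000115, 3.1e-05 and 6.4e-05). Ly96, which encodes the MD-2 subunit that holds the lipid ligand of TLR4, was at 2.50 and 3.64 TPM in Normal and at 14.8, 24.7 and 23.2 in IC. It was at 32.9, 31.5 and 65.2 in IS and at 18.9, 41.2 and 21.8 in IS-HA. The rats with the highest Ly96, IS replicate 4 and IS-HA replicate 2, were the smallest libraries and had the steepest loss of long genes. Against Normal it rose by 2.72 ± 0.58 in IC, 3.85 ± 0.60 in IS and 3.19 ± 0.59 in IS-HA (edgeR adjusted p = 0.00896, 0.00066 and 0.00295), and with a correction for gene length by 2.20, 3.07 and 2.41. Without IS-HA replicate 2 the value in IS-HA was 2.59 ± 0.47 (edgeR adjusted p = 0.00314).

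Among the surface receptors, Tlr2 was the most abundant. Its TPM was 2.63 and 1.96 in Normal, 17.3, 23.1 and 22.4 in IC, 33.1, 30.5 and 40.1 in IS and 27.5, 26.2 and 23.5 in IS-HA. The 3 IS rats were the highest of all 11 and the Normal rats the lowest. The rise was 3.13 ± 0.29 in IC, 3.92 ± 0.30 in IS and 3.48 ± 0.29 in IS-HA (edgeR adjusted p = 0.000115, 3.1e-05 and 6.4e-05). Tlr1, its partner for triacylated lipoproteins, was at 0.256 and 0.327 TPM in Normal and between 2.68 and 4.64 in the 9 hemorrhage rats. It rose by 3.48 ± 0.39 in IC, 3.82 ± 0.39 in IS and 3.64 ± 0.39 in IS-HA, and its ranges in the 3 hemorrhage groups overlapped. The ratio of Tlr2 to Tlr1 TPM was 10.3 and 6.01 in Normal and between 4.99 and 9.15 in hemorrhage.

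Tlr4, the lipopolysaccharide receptor, rose with smaller log2 fold changes than its co-receptors, a difference between genes that was not tested. Its TPM was 1.00 and 1.18 in Normal, 5.56, 6.03 and 4.39 in IC, 7.12, 5.35 and 4.69 in IS and 5.54, 1.58 and 6.34 in IS-HA. IS-HA replicate 2 was the lowest hemorrhage rat, on 19 counts. The log2 fold change was 2.23 ± 0.42 in IC, 2.40 ± 0.42 in IS and 1.98 ± 0.42 in IS-HA (edgeR adjusted p = 0.00435, 0.0012 and 0.00566), and 2.31 in IS-HA without replicate 2. Cd14 TPM was 0.923 and 0.618 times that of Tlr4 in Normal, between 5.33 and 10.4 times in IC, between 12.4 and 20.7 times in IS, and 8.33, 38.4 and 9.80 times in IS-HA. The hemorrhage rats therefore did not overlap Normal in this ratio, and the value of 38.4 was that of IS-HA replicate 2. The ratio of Ly96 to Tlr4 was 2.50 and 3.09 in Normal and 2.66 to 5.28 in IC, which overlapped, and 4.62 to 13.9 in IS. In IS-HA it was 3.41, 26.0 and 3.44, the highest value again that of replicate 2.

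The endosomal receptors were called higher in every comparison with Normal except Tlr9 in IS, and no difference between hemorrhage groups passed the test for them. Tlr7 was at 2.35 and 2.52 TPM in Normal, 12.2, 14.2 and 11.2 in IC, 17.9, 10.9 and 8.49 in IS and 20.3, 8.69 and 16.1 in IS-HA. The spread within IS and IS-HA was as wide as any gap between the hemorrhage groups. It rose by 2.30 ± 0.32, 2.34 ± 0.32 and 2.57 ± 0.32 in the same order (edgeR adjusted p = 0.000757, 0.000304 and 0.000324). Tlr3, the receptor that does not use MyD88, was at 1.79 and 2.63 TPM in Normal, 11.6, 11 and 8.69 in IC, 7.41, 5.90 and 9.04 in IS and 9.72, 6.21 and 8.49 in IS-HA. It rose by 2.19 ± 0.26 in IC, 1.78 ± 0.26 in IS and 1.86 ± 0.26 in IS-HA (edgeR adjusted p = 0.000364, 0.000468 and 0.000631). Tlr3 and Tlr9 were the members with a lower log2 fold change in IS than in IC, which did not pass the test. Tlr9 was among the least abundant in every group, with 8 and 14 counts in Normal and 6 to 56 in hemorrhage. Its TPM was 0.314 and 0.561 in Normal, 2.31, 2.04 and 1.19 in IC, 1.16, 1.17 and 0.505 in IS and 2.58, 0.617 and 2.78 in IS-HA. By TPM, IS replicate 4 lay inside the Normal range, and IS-HA replicate 2 just above it. The log2 fold change was 2.01 ± 0.57 in IC and 2.13 ± 0.57 in IS-HA (edgeR adjusted p = 0.0335 and 0.0178), and 1.14 ± 0.58 in IS (edgeR adjusted p = 0.125). Without IS-HA replicate 2 the IS value passed, at 1.14 with an edgeR adjusted p of 0.0465.

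Myd88, the shared adaptor, was the most abundant member in Normal striatum, at 5.99 and 5.35 TPM. It was at 20.1, 25.9 and 22.3 in IC, 38.4, 32.7 and 51.6 in IS and 23.7, 26.4 and 23.7 in IS-HA. The 3 IS rats stood above all others, and IC and IS-HA overlapped. It rose by 1.94 ± 0.28 in IC, 2.87 ± 0.29 in IS and 2.11 ± 0.29 in IS-HA (edgeR adjusted p = 0.001, 6.9e-05 and 0.000511). Irak3, the inhibitory kinase-like protein, was at 2.87 and 2.67 TPM in Normal, 4.15, 9.29 and 5.47 in IC, 11.4, 8.48 and 13 in IS and 7.26, 6.65 and 8.44 in IS-HA. Its rise was the smallest of the called members in IC and in IS-HA, while in IS that was Tlr3. The log2 fold change of Irak3 was 1.12 ± 0.34 in IC, 1.99 ± 0.35 in IS and 1.40 ± 0.34 in IS-HA (edgeR adjusted p = 0.0439, 0.0012 and 0.0118).

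**Figure D1:**
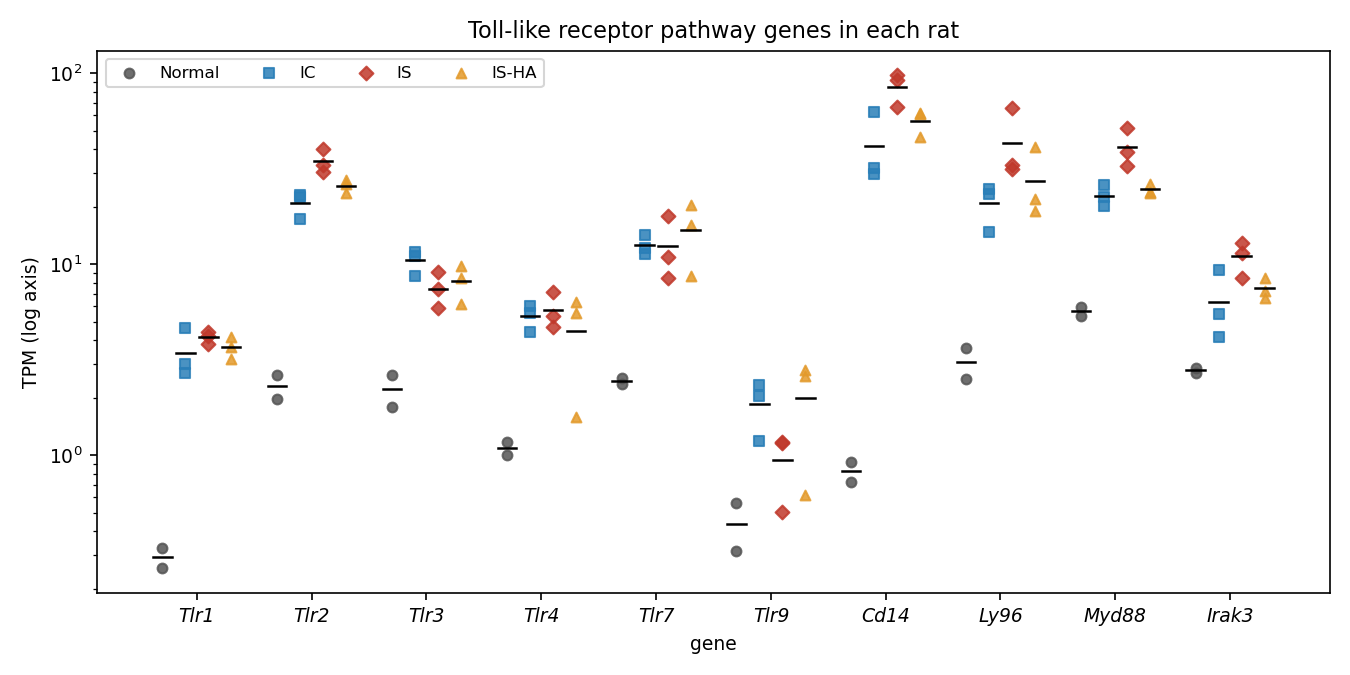
TPM of the 10 genes (log axis) in each of the 11 rats, by group, with a black line at each group's mean. Cd14 moves from below 1 TPM in both Normal rats to between 29.6 and 97.2 in the hemorrhage rats, while Irak3 moves from 2.67 and 2.87 to between 4.15 and 13.

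By mean TPM the order of the members differed between Normal and hemorrhage. In Normal, Myd88 led at 5.67 ± 0.45 (SD, n = 2), Cd14 stood eighth at 0.825 ± 0.14 and Tlr1 last at 0.291 ± 0.05. In IS, Cd14 led at 85 ± 16.5 (SD, n = 3), ahead of Ly96 at 43.2 ± 19.1, Myd88 at 40.9 ± 9.68 and Tlr2 at 34.6 ± 5.01, and Tlr9 was last at 0.945 ± 0.38. Cd14 did not overlap Ly96 in IS, while the rats of Ly96 and Myd88, and of Myd88 and Tlr2, overlapped. The same 4 genes led in IC and in IS-HA, with Cd14 first in each and not overlapping the next, and Tlr9 last.

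**Figure D2:**
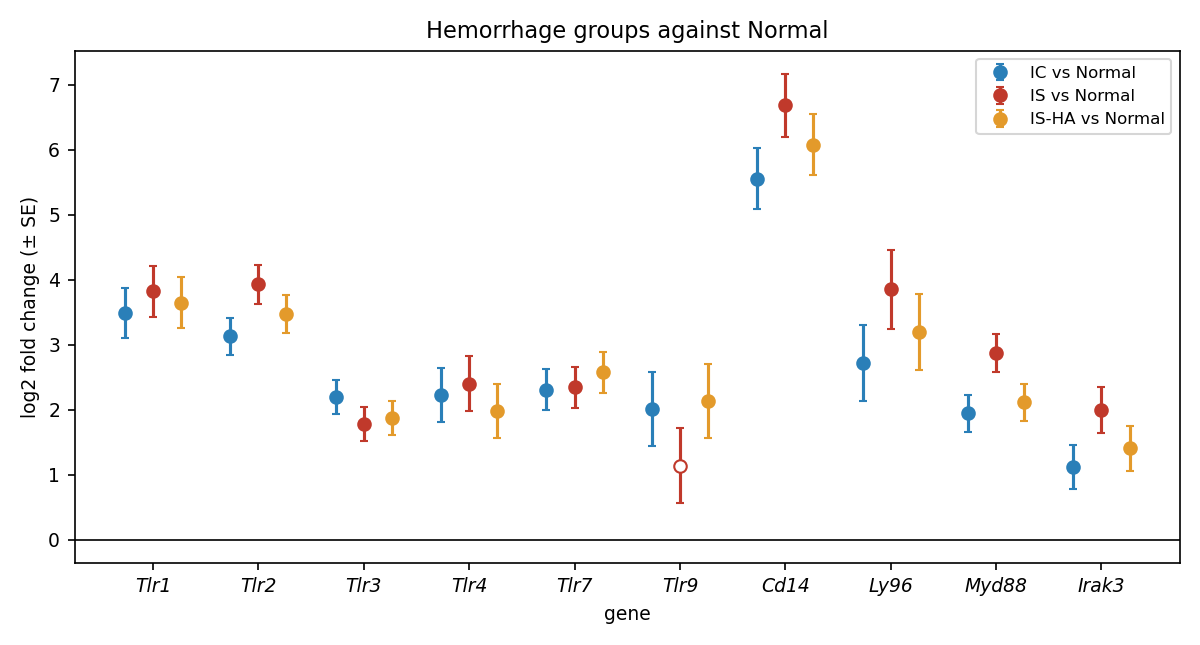
Log2 fold change ± SE of each gene against Normal in IC, IS and IS-HA, from edgeR on counts. Filled points were called and the open point, Tlr9 in IS at 1.14, was not. Cd14 is the highest in each group, at 5.55, 6.68 and 6.08.

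Calls against Normal rested on 2 control rats. Leaving out either Normal rat leaves 1 control, and fewer of all genes were then called higher in IC and in IS-HA. In IC, Tlr9, Ly96 and Irak3 lost their call with either Normal rat left out, and Tlr4 without replicate 3. In IS-HA, Tlr9 and Irak3 lost it with either Normal rat left out, and Tlr4 without replicate 3. All of these log2 fold changes stayed above 0, the lowest being 1.00 for Irak3 in IC without replicate 3. In IC the call of Tlr9 was also lost without IC replicate 2 (edgeR adjusted p = 0.0757) or 3 (0.091), and that of Irak3 without IC replicate 3 (log2 fold change 0.78) or 4 (edgeR adjusted p = 0.0881). Leaving out 1 of 4 rats of IS or IS-HA, which enter only through the shared spread, also took the call of Irak3 away, with edgeR adjusted p between 0.0504 and 0.0599.

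Severe was next compared with common hemorrhage. These groups differ in enzyme dose and injected volume as well as in the bleed, which the paper reports as larger in IS. The 3 cannot be told apart here. No member was called, and 0% of all genes were called higher. At an unadjusted p under 0.05, 5 members were higher and 0 lower, beside 10.5% of all genes higher and 11.7% lower by the same criterion. The 5 were Cd14 (log2 fold change 1.13 ± 0.29, unadjusted p = 0.00276), Myd88 (0.93 ± 0.23, 0.00224), Tlr2 (0.80 ± 0.22, 0.00433), Irak3 (0.88 ± 0.29, 0.0115) and Ly96 (1.13 ± 0.44, 0.0268). Their adjusted p by edgeR lay between 0.147 and 0.188. In the TMM-normalized counts every IS rat lay above every IC rat for these same 5 members, beside 19.2% of all genes tested. Every IS rat lay below every IC rat for Tlr9, beside 18.7% of all genes, with a log2 fold change of -0.87 ± 0.47 (edgeR adjusted p = 0.286). With TPM in place of CPM, or with library size alone, 4 members lay above, and Irak3 did not. For Irak3 the lowest IS rat (replicate 3) was at 12.0 CPM and the highest IC rat (replicate 3) at 11.7. For Tlr9 the highest IS rat (replicate 3) was at 1.80 CPM and the lowest IC rat (replicate 4) at 1.89, on 20 counts each. Tlr7, Tlr4 and Tlr1 differed by 0.04 ± 0.25, 0.17 ± 0.33 and 0.34 ± 0.27, and Tlr3 by -0.41 ± 0.22.

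Calls in this comparison depended on the test and on a rat outside the comparison. With the Wald test of DESeq2, Cd14 was called (log2 fold change 1.15 ± 0.33, adjusted p = 0.0188), where 1.66% of all genes were called higher, and Myd88 and Tlr2 had adjusted p of 0.0162 and 0.0301 with folds under the cutoff. Without IS-HA replicate 2, which enters only through the shared estimate of the spread, edgeR called Cd14 (1.13 ± 0.27, adjusted p = 0.0302) and Ly96 (1.13 ± 0.33, adjusted p = 0.0491) higher in IS, beside 2.19% of all genes. With every rat kept and a correction for gene length, Ly96 stood at 0.88 ± 0.35 and Cd14 at 1.04 ± 0.27 (edgeR adjusted p = 0.178 and 0.118). The long gene Tlr2 moved up, to 1.08 ± 0.31 (edgeR adjusted p = 0.125). With each rat left out in turn, Ly96 ranged from 0.64 to 1.34.

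Aspiration was compared with untreated severe hemorrhage, which asks whether the procedure at 6 h left the pathway lower on day 3. The aspirated rats were also anesthetized again and had a catheter passed through the cavity. With no sham-aspirated group, these and the removal of blood cannot be told apart. No member was called, and 0.00635% of all genes were called higher, a single gene, Foxn3, which was named after its values were seen. By edgeR the adjusted p of the members was at least 0.540. At an unadjusted p under 0.05, 1 member was lower, Myd88 (log2 fold change -0.75 ± 0.23, unadjusted p = 0.00808, edgeR adjusted p = 0.540), beside 3.36% of all genes, and 0 were higher, beside 5.58%. Among the members with lower estimates, Cd14 differed by -0.61 ± 0.29, Ly96 by -0.66 ± 0.44, Irak3 by -0.59 ± 0.29, Tlr2 by -0.45 ± 0.22, Tlr4 by -0.42 ± 0.34 and Tlr1 by -0.18 ± 0.28. On the other side were Tlr9 at 1.00 ± 0.48, Tlr7 at 0.23 ± 0.26 and Tlr3 at 0.08 ± 0.22. Every IS-HA rat lay below every IS rat in normalized counts for Irak3, Myd88 and Tlr2, which is 3 members, beside 5.42% of all genes, and none lay above, beside 4.96%. For Tlr2 this was close to a tie, since the highest IS-HA rat (replicate 2) and the lowest IS rat (replicate 3) were both at 91.0 CPM, though the groups did not overlap with TPM, DESeq2 size factors or library size alone either.

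Without IS-HA replicate 2 the same comparison gave 6 members below, beside 24.9% of all genes, and 1 above, Tlr9, beside 26.0%. In that fit Myd88 stood at -0.95 ± 0.23 (edgeR adjusted p = 0.0472), which passed on p and not on the fold cutoff, and Ly96 moved to -1.25 ± 0.39 (edgeR adjusted p = 0.0728). Tlr9 stood at 1.33 ± 0.38 (edgeR adjusted p = 0.0653) and Tlr4 at -0.09 ± 0.21.

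**Figure D3:**
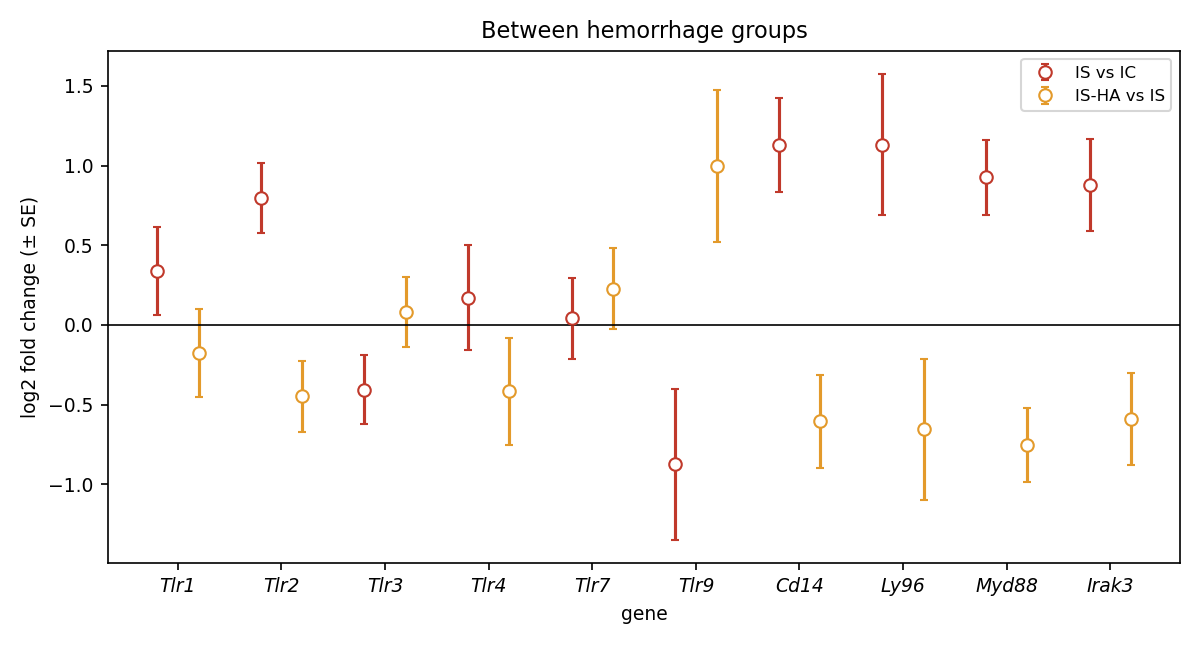
Log2 fold change ± SE of each gene in IS against IC and in IS-HA against IS, from edgeR on counts. All points are open because none was called. Cd14, Ly96, Myd88, Irak3 and Tlr2 lie between 0.80 and 1.13 for IS against IC and between -0.75 and -0.45 for IS-HA against IS, and Tlr9 lies on the other side in each, at -0.87 and 1.00.

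Most markers of phagocytes were also higher in hemorrhage than in Normal striatum. The summed level of 12 microglia and macrophage markers was 333 to 498 CPM in Normal, 2048 to 2881 in IC, 3475 to 5165 in IS and 2592 to 4793 in IS-HA, and 12 of 12 were called higher in each hemorrhage group. The 7 monocyte and macrophage markers summed to between 8.84 and 9.53 CPM in Normal, 38.7 and 79.8 in IC, 95.3 and 221 in IS and 63.5 and 94.7 in IS-HA, with 6 of 7 called higher in each. Of 9 neutrophil markers Ltf was at 0 in every rat. Mpo reached at most 3 counts in any rat, Elane 16 and Camp 20. The list summed to 5.17 and 5.41 CPM in Normal, 134 to 260 in IC, 210 to 293 in IS and 215 to 245 in IS-HA. Its largest part in hemorrhage was Lcn2, at a mean of 140, 145 and 161 CPM in IC, IS and IS-HA. Of the 6 tested, 6 were called higher in each hemorrhage group. B cell markers, relevant to Tlr9, summed to no more than 2.37 CPM in any rat, and none passed the filter on low counts. The 9 striatal neuron markers summed to 6284 and 6966 CPM in Normal, 2501 to 5304 in IC, 1332 to 3339 in IS and 1156 to 2624 in IS-HA, with 1 called lower in IC and 8 in IS and in IS-HA. Of 7 homeostatic microglia markers 5, 4 and 5 were called higher in IC, IS and IS-HA, and of 6 T cell markers 1, 4 and 2. Of 9 general neuron markers 2, 7 and 3 were called lower, and of 6 oligodendrocyte markers 0, 3 and 0. Of 7 astrocyte markers 1 was called higher and 1 lower in each group, of 6 endothelial markers 1 was called higher in each, and of the 3 erythroid markers in the file none was called. These counts stand beside 10.9%, 18.8% and 15.1% of all genes called higher in IC, IS and IS-HA. The shares called lower were 2.66%, 17.0% and 7.71%. In bulk tissue more cells of a type and more RNA per cell cannot be told apart, and how much of each member's rise these cells account for was not tested.

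Each member was also set against the mean log2 CPM of 4 myeloid markers, Aif1, Csf1r, Itgam and Tyrobp, in the same rat. On this scale Cd14 stood above Normal without overlap in each group, at -4.81 and -4.77 in Normal and between -2.58 and -1.36 in all 9 hemorrhage rats. Its difference was 2.42 in IC, 3.11 in IS and 2.81 in IS-HA, and between 2.1 and 3.73 when any 1 of the 4 markers was left out. Tlr2 differed by 0.10, 0.41 and 0.27, without overlap in IS and in IS-HA. Tlr1 differed by 0.38, 0.26 and 0.37 and overlapped Normal in each group. Ly96 differed by -0.35, 0.23 and -0.16, and its rats overlapped Normal in each group. Leaving out 1 marker could turn the sign for Tlr2 and Ly96 in every group and for Tlr1 in IS.

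The remaining members had lower means relative to the markers than in Normal, in some groups with overlap. Irak3 differed by -1.99 in IC, -1.55 in IS and -1.81 in IS-HA, and Myd88 by -1.09, -0.68 and -1.11, with no overlap in any group. Tlr4 differed by -0.82, -1.14 and -1.41, also with no overlap. For Tlr3 the values were -0.83, -1.75 and -1.34, for Tlr7 -0.73, -1.23 and -0.69, and for Tlr9 -1.05, -2.44 and -1.28. Overlap with Normal remained for Tlr3 in IC, Tlr7 in IS-HA and Tlr9 in IC and IS-HA. When each marker was left out in turn, all of these members kept lower means than in Normal, but the size varied. The difference ranged from -1.14 to -0.06 for Myd88 in IS, and from -1.05 to -0.18 for Tlr7 in IS-HA. For Irak3 in IS it ranged from -2.00 to -0.93. The markers themselves rose unequally in IS, with log2 fold changes from 2.15 for Csf1r to 5.41 for Tyrobp. With 3 rats against 2 the two-sided exact permutation test cannot go below p = 0.2, which is the value of every non-overlapping difference from Normal. Lack of overlap with Normal was common among all genes in normalized counts. In IC, IS and IS-HA 32.4%, 37.6% and 31.7% lay above Normal, and 31.3%, 36.9% and 29.2% below.

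Between hemorrhage groups the smallest exact p is 0.1. Relative to the markers, Cd14 (0.69), Ly96 (0.58) and Myd88 (0.41) were higher in every IS rat than in every IC rat, and Tlr3 (-0.91) and Tlr9 (-1.39) lower, each at exact permutation p = 0.1. Myd88 was lower in every IS-HA rat than in every IS rat (-0.43, exact permutation p = 0.1), and the other 9 members overlapped. How many of all genes do not overlap on this scale was not computed. In normalized counts 19.2% of all genes lay above and 18.7% below for IS against IC. For IS-HA against IS, 4.96% lay above and 5.42% below.

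**Figure D4:**
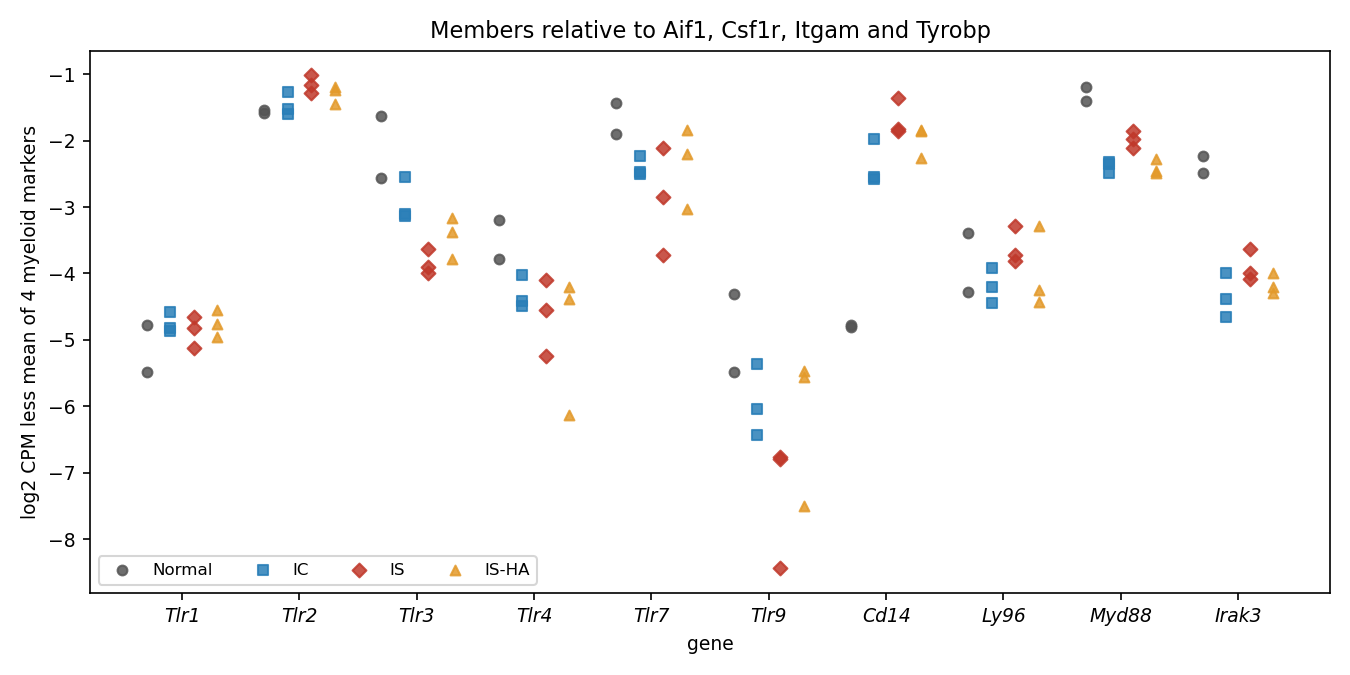
Log2 CPM of each gene less the mean log2 CPM of Aif1, Csf1r, Itgam and Tyrobp in the same rat, by group. Cd14 lies near -4.8 in Normal and above -2.6 in every hemorrhage rat, whereas Irak3 lies above -2.5 in Normal and below -3.6 in every hemorrhage rat.

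Across the 9 hemorrhage rats 6 of the members varied together, given as a description. Tlr1, Tlr2, Cd14, Ly96, Myd88 and Irak3 correlated with each other at Pearson r of 0.76 to 0.96 in log2 CPM. The closest pair was Cd14 and Irak3 (r = 0.96, Spearman rho = 0.95), followed by Tlr2 and Myd88 (r = 0.95, rho = 0.88). With group means removed these were 0.91 and 0.92, and without the 2 rats farthest from the median of the first gene 0.94 and 0.90. Other pairs were less stable: Tlr2 and Irak3 went from 0.86 to 0.47 without the 2 farthest rats, Tlr2 and Cd14 from 0.86 to 0.57 with group means removed, and Tlr1 and Tlr2 had rho = 0.55. Tlr9 ran against that group, at r = -0.95 with Ly96 (rho = -0.92, -0.95 with group means removed) and -0.89 with Myd88. Tlr7 and Tlr9 correlated at 0.64 (rho = 0.67), and Tlr3 lay between -0.47 (with Cd14) and 0.22 (with Tlr9). Without the 2 farthest rats Tlr2 and Tlr3 stood at -0.78 and Tlr3 and Tlr4 at 0.60. The 9 rats share group, library depth and the length dependence described above, and the rats lowest in Tlr9, IS replicate 4 and IS-HA replicate 2, were those with the steepest slopes on length, at -0.16 and -0.26. How much these correlations owe to that was not tested.

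**Figure D5:**
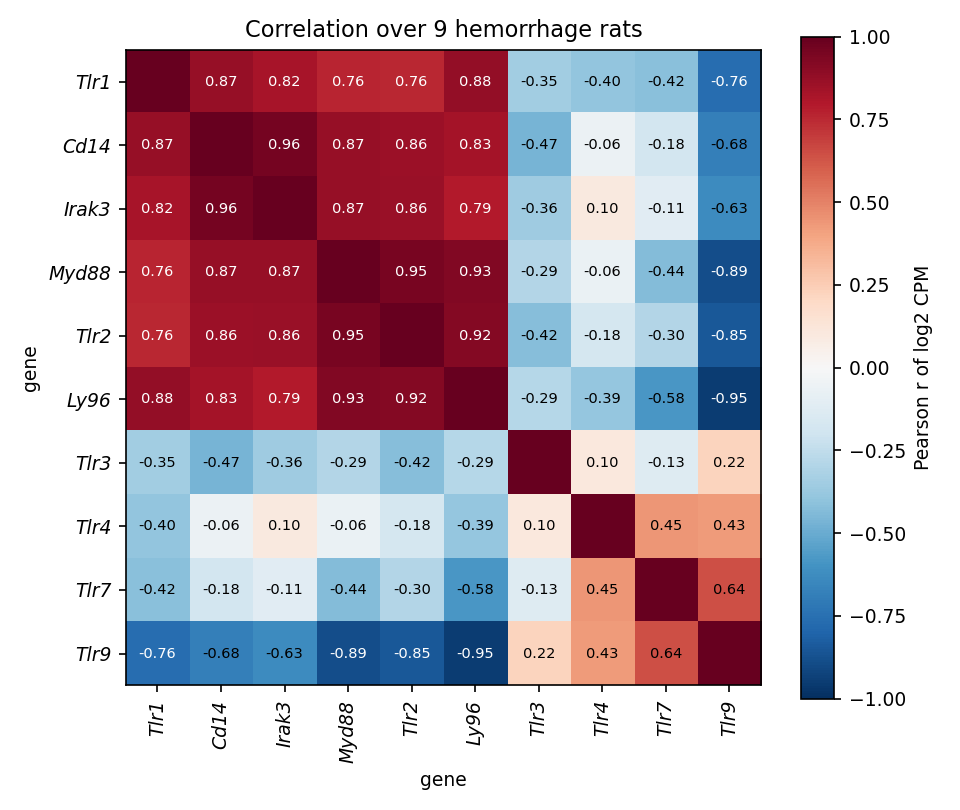
Pearson r between the log2 CPM of each pair of genes over the 9 hemorrhage rats, in an order set by hand, from -1 (blue) to 1 (red). The 6 genes from Tlr1 to Ly96 form a red square with r from 0.76 to 0.96, and Tlr9 is blue against each of them, from -0.95 to -0.63.

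The genes with the profile most like each member over the same 9 rats included 1 gene of the pathway lists used here, Bgn, and 1 of the marker lists, Laptm5. They were picked as the highest r among all genes tested over only 9 rats, which by itself favors high values. The rats also share the depth and length dependence given above, and no r was tested. For Ly96 they were Scly, Laptm5 and Rbm38, with Pearson r of 0.998, 0.997 and 0.994. For Myd88 they were Enpp3, Psap and Xdh (0.989, 0.989 and 0.987), and for Irak3 they were Tgif1, Tedc2 and Ms4a6a (0.987, 0.984 and 0.978). For Cd14 they included Bgn, which encodes the matrix proteoglycan biglycan (0.979). For Tlr2 they were Cdkn2aipnl, Mbd2 and Ints7 (0.982, 0.982 and 0.981), for Tlr1 Taf11l1, Arap3 and Ccnd1 (0.983, 0.969 and 0.968) and for Tlr4 Cntln, Pdgfb and Eif4g1 (0.984, 0.984 and 0.969). Tlr9 was closest to Zbtb8b (0.983), Tlr7 to Zbtb16 (0.953) and Tlr3 to Nup93 (0.934).

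The rest of the pathway was read from 80 further genes in 8 lists, of which 76 passed the filter. Of the 76, 36 were called higher and 0 lower in IC, 41 and 6 in IS, and 39 and 1 in IS-HA, beside 10.9%, 18.8% and 15.1% of all genes called higher and 2.66%, 17.0% and 7.71% called lower. Their median log2 fold change was 1.38, 1.86 and 1.61. In IS against IC and in IS-HA against IS none was called by edgeR, with 23 and 0 higher and 3 and 12 lower at an unadjusted p under 0.05, where the shares of all genes were 10.5% and 5.58% higher and 11.7% and 3.36% lower.

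Of 8 other receptors, 7 were called higher in each hemorrhage group. Tlr8, an endosomal RNA sensor, rose by 6.73 ± 0.64 in IS (edgeR adjusted p = 4.9e-05), from 4 to 7 counts in Normal, and Tlr13 by 3.47 ± 0.30 (3.6e-05). Tlr11 was at 0 counts in both Normal rats and at 1 to 10 counts in IS (TPM 0.414 ± 0.41, SD). Its mean CPM in IS was at least 3.40-fold the floor of 3 counts per Normal library, which need not hold for each rat. Of 9 accessory genes, 4, 6 and 5 were called higher in IC, IS and IS-HA. Unc93b1, which carries the endosomal receptors out of the endoplasmic reticulum, rose by 4.39 ± 0.47 in IS, from 7.58 ± 0.72 to 156 ± 65.2 TPM. Lbp, the lipopolysaccharide-binding protein, rose by 5.41 ± 0.57, from only 3 to 4 counts in Normal. Cd36, a scavenger receptor that works with TLR2, had 0 and 1 counts in Normal and 14 to 84 in IS, and was called higher (edgeR adjusted p = 0.0149).

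Of 7 genes for danger molecules, 5 were called higher in each group. S100a8 and S100a9, whose protein dimer acts on TLR4, rose by 8.03 ± 1.44 and 7.74 ± 1.03 in IS, and Tnc, which encodes the matrix protein tenascin-C, by 1.93 ± 0.44. In Normal, S100a8 had 2 to 3 counts and S100a9 had 5 to 7, so the sizes of their rises are uncertain. Hmgb1, a nuclear protein released by dying cells, had a log2 fold change of 0.05 ± 0.16 in IS. Of 5 adaptors 3 were called in each group: Ticam1, which encodes TRIF, rose by 3.78 ± 0.41 in IS, Ticam2, its bridge to TLR4, by 3.27 ± 0.39 and Pik3ap1, an adaptor to phosphoinositide 3-kinase, by 2.92 ± 0.30.

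Kinases and ubiquitin ligases made up the largest list. Of 17 tested, 1, 3 and 2 were called higher in IC, IS and IS-HA, and 0, 5 and 0 lower, with median log2 fold changes of 0.07, -0.10 and -0.11. Irak4, the kinase recruited first to MyD88, rose by 2.39 ± 0.33 in IS and Ikbke by 2.46 ± 0.52, while Irak1 stood at 0.06 ± 0.19. Tab3 fell by 2.19 in IS (SE 0.70, edgeR adjusted p = 0.0231). Of 8 transcription factors, Spi1, which encodes PU.1, rose by 4.53 ± 0.56 in IS, Irf8 by 3.09 ± 0.31 and Irf5 by 2.46 ± 0.27, and 4, 3 and 3 were called higher in the 3 groups.

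Of 8 negative regulators, 3 were called higher and 1 lower in IS. Zc3h12a, which encodes the RNase Regnase-1, rose by 2.59 ± 0.49 and Socs1 by 2.18 ± 0.50, while Cyld, a deubiquitinase, fell by 1.71 (SE 0.29, edgeR adjusted p = 0.000949). Among 14 target genes tested, 10, 11 and 11 were called higher. Ccl2, a monocyte chemoattractant, rose by 9.10 ± 0.84 in IS, from 0.420 ± 0.13 to 241 ± 70.0 TPM. Its Normal level rested on 2 to 3 counts, so the size of that rise is uncertain. Cxcl2, a neutrophil chemoattractant, and Il6 were at 0 counts in both Normal rats, and in IS they were at least 103-fold and 7.95-fold higher against the floor of 3 counts per Normal library. Cxcl2 was at 3 to 40 counts in IC, 96 to 315 in IS and 10 to 14 in IS-HA, with log2 fold changes of 3.61 ± 0.81 for IS against IC and -3.95 ± 0.85 for IS-HA against IS (edgeR adjusted p = 0.146 and 0.415).

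Without IS-HA replicate 2, edgeR called 10 of these pathway genes between IS and IC, 8 higher and 2 lower, beside 2.19% of all genes called higher and 3.87% called lower in that fit. It called 4 lower in IS-HA than in IS, beside 0.541% of all genes. The 4 were Cxcl2 (-4.44 ± 0.96), Nos2 (-4.08 ± 0.65), Il1b (-2.16 ± 0.47) and S100a9 (-1.90 ± 0.40), with edgeR adjusted p between 0.0342 and 0.0423. The same 4 were higher in IS than in IC in that fit. Nos2, which makes nitric oxide, and Cxcl2 were also called in both comparisons by DESeq2's Wald test with every rat kept, which called 1.66% of all genes higher in IS than in IC and 0.127% lower in IS-HA than in IS. With all 11 rats and edgeR, none of these differences passed.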

How the data were processed

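Poly(A) RNA from the striatum of 11 rats was made into TruSeq Stranded libraries and sequenced in paired reads on a NovaSeq. The authors deposited whole-number read counts for each gene, and deposited TPM values, corrected for gene length, beside them. The submitters' processing notes name fastp 0.20.0, HISAT2 2.1.0, SAMtools 1.9 and featureCounts, with build mRatBN7.2. The strand setting of the counting is not given in the sources used here, so antisense transcripts may share reads with a gene. Of the rows, 4447 carry no symbol.

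Counts were filtered with filterByExpr, normalized by TMM and tested in edgeR 4.0.16 (R 4.3.3) by the quasi-likelihood F test with the 4 groups in 1 fit. P-values were adjusted by Benjamini-Hochberg across all 15742 genes that passed. SEs were derived from each log2 fold change and its F statistic. Depth ran from 6701301 to 18817645 counts, at which the floor of 3 counts is 0.448 and 0.159 CPM, covering counting error only. Relative lengths came from deposited counts over TPM.

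The members and lists were chosen with earlier results of these data known. Named genes are all 10 members, up to 3 genes per pathway list with the largest change among those called in IS against Normal, genes called between hemorrhage groups, and for each member the 3 genes with the highest Pearson r, of which some are not reported here. Hmgb1 and Irak1, and the genes named from the fits without IS-HA replicate 2 or by DESeq2, fall outside that rule and were named after their values were seen. Marker lists for T cells, erythroid cells, neurons, astrocytes, oligodendrocytes and endothelium were read as well. Alternatives were other size factors, DESeq2 1.42.0, limma 3.58.1 (voom, and trend on log2(TPM + 1)), other filters, fewer groups, each rat left out, a replicate block, no fold cutoff, TPM in place of CPM, and ratios to 4 myeloid markers tested by two-sided exact permutation. A correction for gene length, and the overlap of groups under other scalings or without a rat, were added after seeing the data. The methods were tested on simulated data. Plots were drawn with matplotlib 3.10.9.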

Additional observations from a re-analysis of the deposited data

How the results depend on the processing

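With at least 10 counts in every rat, which leaves out Tlr1 and Tlr9 and many pathway genes with low counts, 21, 29 and 24 pathway genes were called in IC, IS and IS-HA against Normal, beside 36, 47 and 40. With each rat left out in turn, the members called ranged from 6 to 10 in IC, 9 to 10 in IS and 7 to 10 in IS-HA against Normal, from 0 to 2 in IS against IC, and stayed at 0 in IS-HA against IS. The pathway genes called ranged from 19 to 40, 37 to 49, 25 to 43, 0 to 10 and 0 to 4 in the same order. The lowest counts in IC and IS-HA came without Normal replicate 3, where fewer of all genes were called higher as well. Counts above 0 between hemorrhage groups came without IS-HA replicate 2. Members without overlap ranged from 5 to 6 (IS above IC), 1 to 2 (below), 0 to 1 (IS-HA above IS) and 3 to 6 (below). The shares of all genes moved too. With every rat kept they were 19.2%, 18.7%, 4.96% and 5.42% in the same order. With a rat left out they ranged from 20.6% to 27%, 20.1% to 26.9%, 6.59% to 26% and 7.04% to 24.9%. DESeq2's Wald test called 1 member and 6 pathway genes in IS against IC, and 2 pathway genes in IS-HA against IS. Against Normal, Irak3 in IC lost its call with limma voom (limma adjusted p = 0.0608), limma on log2(TPM + 1) (0.0736) and the length correction (edgeR adjusted p = 0.0616). Tlr9 lost it with limma on log2(TPM + 1) in IC and IS-HA (limma adjusted p = 0.103 and 0.0715). With only the groups compared, Tlr4 and Tlr9 lost it in IS-HA (edgeR adjusted p = 0.0602 and 0.0765).

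Relative to the myeloid markers the sign of the log2 fold change turned, in IC, for Tlr3 (-0.83), Tlr4 (-0.82), Tlr7 (-0.73), Tlr9 (-1.05), Ly96 (-0.35), Myd88 (-1.09) and Irak3 (-1.99), in IS for Tlr3 (-1.75), Tlr4 (-1.14), Tlr7 (-1.23), Myd88 (-0.68) and Irak3 (-1.55) and for Tlr9, not called in IS (-2.44), and in IS-HA for Tlr3 (-1.34), Tlr4 (-1.41), Tlr7 (-0.69), Tlr9 (-1.28), Ly96 (-0.16), Myd88 (-1.11) and Irak3 (-1.81). The ratio itself differs in construction, since the markers rose too. Small differences also turned: Tlr7 in IS against IC with limma on TPM (-0.0687), without IS replicate 2 (-0.25, against 0.21 without IS replicate 4) and under the block (-0.0029), and in IS-HA against IS Tlr3 with the correction for gene length (-0.0404), without IS replicate 3 (-0.0992, against 0.30 without IS replicate 4) or without IS-HA replicate 1 (-0.0057). The cause was not tested.

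Same-numbered rats are different animals, and their deviations correlated at 0.36, -0.34 and 0.08 for IS and IC, -0.48 and -0.09 for IS-HA and IS, and -0.36 and 0.34 for IS-HA and Normal, so the numbers were not taken to pair them. No such fit could be made for IC or IS against Normal, which share fewer than 2 numbers. With the replicate block 0 members were called in IS against IC and in IS-HA against IS and 10 in IS-HA against Normal, and in IS-HA against IS the sign turned for Tlr1 (0.0578) and Tlr7 (-0.16). Library size alone moved the median of all genes against Normal by 0.13 to 0.14, and the length correction moved it by -0.15 to -0.11, with no member changing direction against Normal. Depth limits Tlr9 most, at 6 to 56 counts in the hemorrhage rats.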
